A study of Mus musculus with 12 samples.

Results

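The Schlafen family of the mouse was followed here in macrophages exposed to interleukin-4 (IL-4). All probes whose gene name in the scanner files was Slfn1, Slfn2, Slfn3, Slfn4, Slfn5, Slfn8 or Slfn9 were taken, which gave 8 probes for 7 of the 27670 gene names on the array. Slfn3 had 2 probes and each other gene had 1. All 8 probes passed the filter on dim probes that left 27371 of 41174 probes for testing. A probe passed if some group had it well above background on each of its 2 arrays. The dimmer of the Slfn3 probes passed through the mock groups alone, so that it had to read lower after IL-4, and counts are given with and without it.

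The study grew macrophages from pooled bone marrow of 8 to 12 week old mice, 2 males and 1 female per pool, in medium with recombinant colony stimulating factor 1 (rCSF1). The 12 arrays of labelled RNA fall into 6 groups of 2: Balb/cAnNCrl cells incubated for 18 h without IL-4 (mock), with IL-4 for 4 h or with IL-4 for 18 h, and C57BL6/J cells in the same 3 conditions. The strains are called Balb/c and C57BL6 below. IL-4 was given at 10 ng/ml, and because both mock arrays of a strain stand for 18 h of incubation, the 4 h samples have no mock of their own time. The protocol text also speaks of lipopolysaccharide, which the labels of these 12 samples do not list. The 2 samples of a group come from separate experiments on different littermates. The p-values therefore measure the spread between pools of mice together with that of culture, labelling and, in some groups, array slide. They do not measure the spread between single animals. The number of arrays limits the precision.

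Schlafen proteins are found in mammals, where many of the genes are switched on by type I interferon. In the mouse the short members Slfn1 and Slfn2 form group I, the intermediate Slfn3 and Slfn4 group II, and the long Slfn5, Slfn8 and Slfn9, which carry a helicase-like C-terminal region, group III. The genes were first described in developing T cells, and members are known for restraining cell growth, for keeping T cells and monocytes quiescent (Slfn2), and for varying with myeloid differentiation (Slfn4). IL-4 acts on macrophages through the factor STAT6 and drives the state often called alternative activation.

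All 7 genes lie on chromosome 11 in 1 cluster. In the RefSeq annotation of GRCm38.p6 the order is Slfn5, Slfn9, Slfn8, the pseudogene Slfn10-ps, Slfn2, Slfn1, Slfn4 and Slfn3, with Unc45b on the Slfn5 side and Slfn14 on the Slfn3 side. Slfn8 and Slfn9 lie on the minus strand and the other 5 genes on the plus strand.

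Promoters of 4 members are printed because each holds a match to a motif of interferon-regulated genes. They are RefSeq windows of 300 bases on GRCm38.p6, most of each upstream of the annotated start, written 5′ to 3′ along the gene's strand. Capitals mark the match to the interferon-stimulated response element (ISRE, searched on both strands as GAAA, any 2 bases, GAAA) in Slfn5, Slfn8 and Slfn9, and to the ETS-IRF composite element (searched on both strands as GGAA, any 2 bases, GAAA) in Slfn2. The intervals are chr11:82951852-82952151 on the plus strand for Slfn5, chr11:83020761-83021060 on the minus strand for Slfn8, chr11:82991781-82992080 on the minus strand for Slfn9 and chr11:83064862-83065161 on the plus strand for Slfn2.
Slfn5: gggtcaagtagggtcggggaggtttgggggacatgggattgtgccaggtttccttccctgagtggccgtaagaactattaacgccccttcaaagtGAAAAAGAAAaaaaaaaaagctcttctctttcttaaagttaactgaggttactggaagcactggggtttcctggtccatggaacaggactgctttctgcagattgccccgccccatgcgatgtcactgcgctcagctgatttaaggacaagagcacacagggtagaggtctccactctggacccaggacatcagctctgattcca
Slfn8: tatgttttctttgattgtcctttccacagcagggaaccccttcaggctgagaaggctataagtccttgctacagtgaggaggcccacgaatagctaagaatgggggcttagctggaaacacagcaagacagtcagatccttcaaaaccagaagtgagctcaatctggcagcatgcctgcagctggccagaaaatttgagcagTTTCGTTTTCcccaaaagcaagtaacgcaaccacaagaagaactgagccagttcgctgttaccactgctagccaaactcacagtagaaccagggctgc
Slfn9: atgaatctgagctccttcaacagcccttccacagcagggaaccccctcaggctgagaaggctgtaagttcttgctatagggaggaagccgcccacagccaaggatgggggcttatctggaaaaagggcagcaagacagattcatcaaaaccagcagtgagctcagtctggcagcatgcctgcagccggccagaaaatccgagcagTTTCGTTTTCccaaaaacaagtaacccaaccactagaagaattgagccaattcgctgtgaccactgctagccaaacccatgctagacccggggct
Slfn2: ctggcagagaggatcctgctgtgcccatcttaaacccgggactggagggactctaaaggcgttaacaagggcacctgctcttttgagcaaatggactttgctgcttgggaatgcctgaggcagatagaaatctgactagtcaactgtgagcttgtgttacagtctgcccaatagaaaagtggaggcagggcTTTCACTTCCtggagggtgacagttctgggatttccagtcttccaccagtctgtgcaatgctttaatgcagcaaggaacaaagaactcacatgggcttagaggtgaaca

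Counted from the annotated start as 0, the ISRE ran from -155 to -146 in Slfn5, from -48 to -39 in Slfn8 and from -45 to -36 in Slfn9. Slfn8 has a further RefSeq start, from which the same match runs from -136 to -127. The match was present in 3 of the 7 members, 3.44% of 32851 mouse promoters of that length and 18 of the 28 promoters found for a list of interferon-induced genes. The ETS-IRF composite ran from -59 to -50 in Slfn2 and occurred in 2.72% of all promoters. The letters of the site that STAT6 is known to bind (TTC, any 4 bases, GAA; 6.95% of promoters) were in none of the 7 windows. These matches describe letters only. Aligned end to end, the windows of Slfn8 and Slfn9 shared 81.0% of 306 columns, against 52.8% for the next most alike pair of members, Slfn2 and Slfn8.

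**Figure D1:**
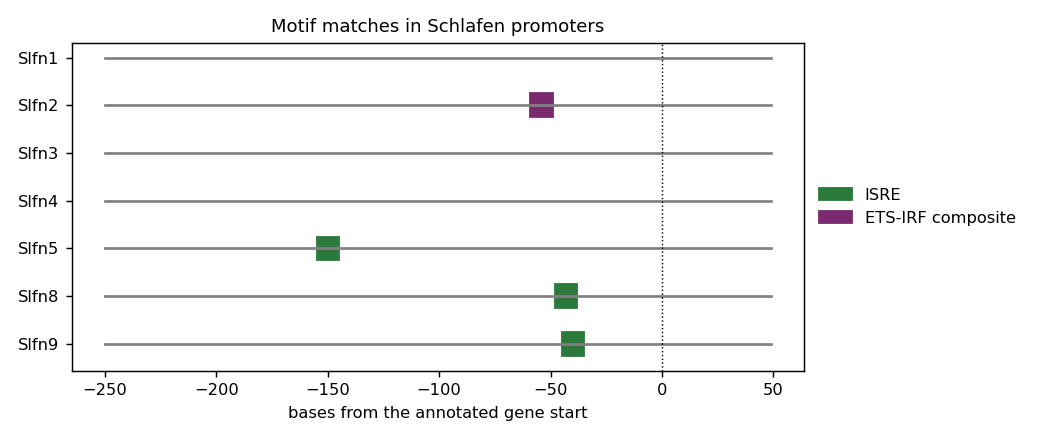
Position of motif matches in the promoter window of each of the 7 Schlafen genes, in bases from the annotated start (dotted line). Green blocks are ISRE matches (Slfn5, Slfn8, Slfn9) and the purple block is the ETS-IRF composite of Slfn2; Slfn1, Slfn3 and Slfn4 show none, and Slfn8 is drawn from the start used for the printed window.

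The measured quantity is log2 of the scanner's processed signal minus the log2 of the 75th percentile of that array. A level of 0 is therefore the signal at that percentile of the array. Levels are compared for 1 probe across arrays and never between probes. Values are given for replicate 1 and then replicate 2. Differences were tested with limma across all 27371 probes with Benjamini-Hochberg adjustment, and a probe was called at an adjusted p below 0.05. Errors of differences are standard errors.

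After 18 h of IL-4 every Schlafen probe read lower than in mock cells in both strains. In Balb/c macrophages 5 of 8 probes were called lower, those of Slfn1, Slfn2, Slfn5, Slfn8 and Slfn9, where 2.33% of all tested probes were called lower. In C57BL6 macrophages 2 of 8 were called lower, Slfn8 and Slfn9, against 2.37% of all probes. The median log2 change of the 8 probes was -2.08 in Balb/c and -1.40 in C57BL6 cells, while the median of all probes was 0.00 and -0.02. With normexp background correction and quantile scaling the medians of the 8 probes were -1.35 and -0.84. Without the dimmer Slfn3 probe, 5 of 7 probes were called lower in Balb/c and 2 of 7 in C57BL6 cells, with medians of -2.13 and -1.39. On both 18 h arrays the level was below both mock arrays for 8 of 8 probes in each strain (7 of 7 without the dimmer Slfn3 probe), a pattern shown by 22.6% of all probes in Balb/c and 26.8% in C57BL6. No Schlafen probe was called higher in any comparison with mock. The RNA came from whole cultures, in which fewer cells of a type and less RNA per cell cannot be told apart.

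**Figure D2:**
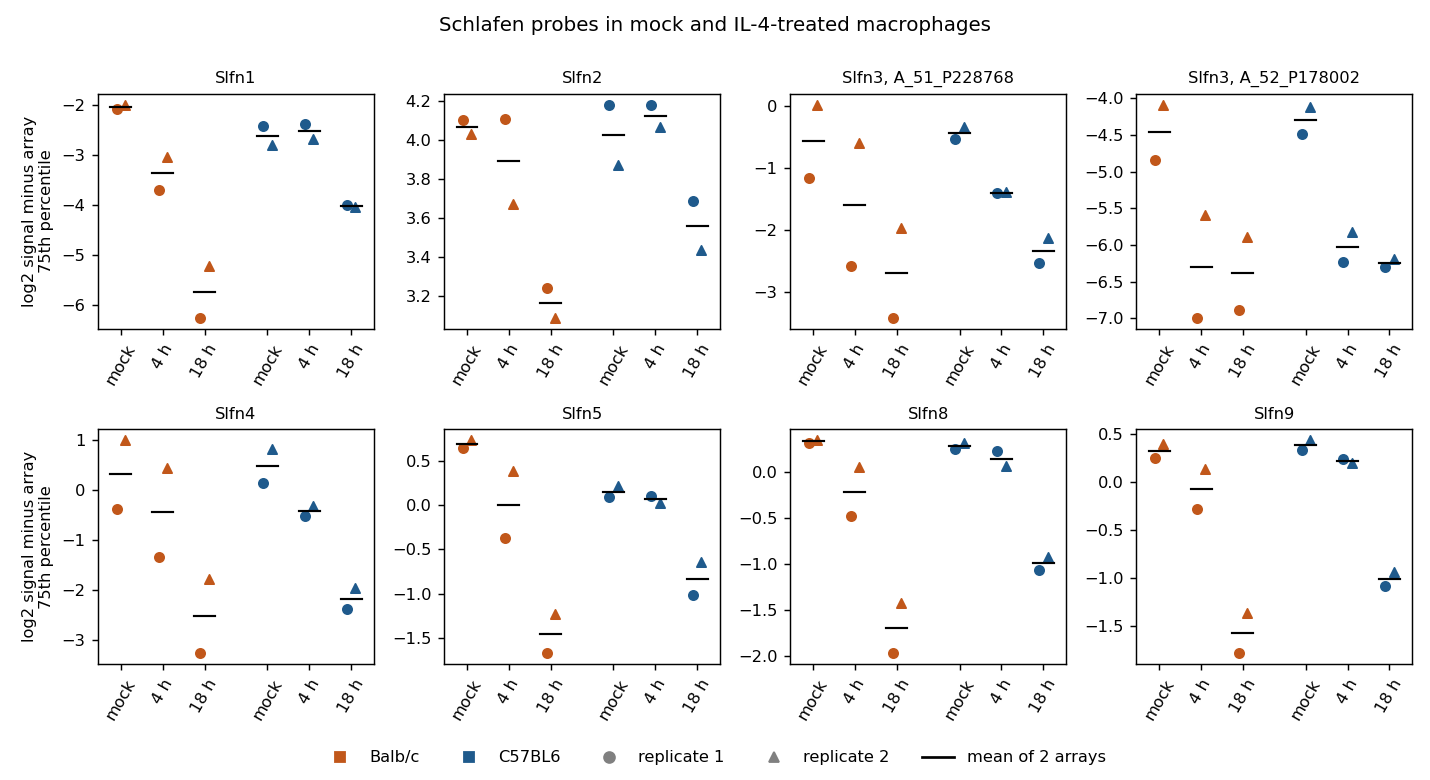
Level of each Schlafen probe (log2 signal minus the array's 75th percentile, vertical axis) in mock cells and after 4 h and 18 h of IL-4, for Balb/c at left and C57BL6 at right in each panel. Circles and triangles are replicates 1 and 2 and black lines the mean of 2 arrays; in all 8 panels both 18 h arrays lie below both mock arrays of their strain.

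Replicate numbers were taken to mark the same experiment within a strain, which the labels do not state for each sample. Same-numbered arrays deviated together, so values with the replicate number as a block are also given where they change a call. In some groups the 2 replicates also lay on different slides, so the block may hold part of a slide difference. With that block 8 of 8 probes were called lower at 18 h in Balb/c cells, with 8.1% of all probes called lower, and 7 of 8 in C57BL6 cells, with 9.69%. The exception in C57BL6 cells was Slfn2 (limma adjusted p = 0.0518). Without the dimmer Slfn3 probe these counts were 7 of 7 and 6 of 7. That every same-numbered pair of arrays read lower at 18 h follows from the lack of overlap given above and is no further result. In C57BL6 cells calls made without the block were lost when any 1 mock or 18 h array of that strain was left out. The median change of the 8 probes then lay between -1.47 and -1.37. The share of all probes called in those fits is not given, so the lost calls are not a result about these genes alone.

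Slfn1, a group I member first found as a growth-restraining gene of T cells, was called lower at 18 h in Balb/c cells. Its probe read -2.09 and -1.99 in Balb/c mock cells, -3.70 and -3.03 after 4 h and -6.26 and -5.22 after 18 h of IL-4. In C57BL6 cells it read -2.43 and -2.81 in mock, -2.38 and -2.68 at 4 h and -4.00 and -4.04 at 18 h. The 3 Balb/c conditions followed each other without overlap, whereas the C57BL6 4 h and mock arrays overlapped. On both Balb/c 18 h arrays the signal was not well above background, so the size of the difference from mock is uncertain. A floored difference was therefore taken from the mean of the brighter group. It used the dimmest signal that counted as well above background on each dim array, or the probe's own where higher. By it Slfn1 was 8.04-fold lower after 18 h of IL-4 in Balb/c cells. That value holds for this scaling and is no strict lower limit. The limma change was called (adjusted p = 0.00177). With normexp background correction and quantile scaling the measured change was -1.29, and it was still called (adjusted p = 0.000435). In C57BL6 cells the 18 h change was -1.40 ± 0.35, adjusted p = 0.0726 without and 0.014 with the replicate block.

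Slfn2, the other group I member, which in mice is needed to keep T cells and monocytes quiescent, was lower at 18 h by less than the called group III members. It read 4.10 and 4.03 in Balb/c mock cells, 4.11 and 3.68 at 4 h and 3.24 and 3.09 at 18 h. The C57BL6 arrays read 4.18 and 3.87 in mock, 4.18 and 4.07 at 4 h and 3.69 and 3.44 at 18 h. The 18 h arrays were below the others in both strains, and the 4 h arrays overlapped with mock. The 18 h change was -0.90 ± 0.20 in Balb/c cells (limma adjusted p = 0.0489), close to the threshold. It was -0.47 ± 0.20 in C57BL6 cells (adjusted p = 0.27). With the slide as a block the Balb/c change was -0.76 and its call was lost (adjusted p = 0.0766). The Balb/c call was lost in 10 of 12 fits that each left out 1 array and in 5 of 10 other settings.

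Slfn4, a group II member of myeloid cells known to respond to interferon, had the largest standard error of the family. Its probe read -0.37 and 1.01 in Balb/c mock cells, -1.33 and 0.44 at 4 h and -3.26 and -1.78 at 18 h. C57BL6 cells gave 0.14 and 0.82 in mock, -0.52 and -0.31 at 4 h and -2.37 and -1.96 at 18 h. In both strains replicate 1 read lower than replicate 2 in every condition, and the 18 h arrays lay below all others. The 18 h change was -2.84 ± 0.71 in Balb/c cells (adjusted p = 0.0776) and -2.65 ± 0.71 in C57BL6 cells (adjusted p = 0.0867), not called by limma without the block. With the replicate block the standard error was 0.15 and the adjusted p was 0.000727 in Balb/c and 0.000891 in C57BL6 cells.

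Slfn3, the other group II member, known in rodents from T cells and the intestinal epithelium, was read by 2 probes. Probe A_51_P228768 read -1.16 and 0.03 in Balb/c mock cells, -2.58 and -0.60 at 4 h and -3.43 and -1.97 at 18 h. In C57BL6 cells it read -0.53 and -0.33 in mock, -1.40 and -1.39 at 4 h and -2.54 and -2.13 at 18 h. For each replicate number the order was mock, 4 h, 18 h from high to low. The 18 h change was -2.14 ± 0.70 in Balb/c cells (limma adjusted p = 0.18 without and 0.0031 with the replicate block). It was -1.91 ± 0.70 in C57BL6 cells (adjusted p = 0.196 without and 0.00427 with the block).

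The dimmer Slfn3 probe, A_52_P178002, was well above background on both mock arrays of each strain, on 1 of 2 arrays at 4 h and on none at 18 h. It read -4.84 and -4.09 in Balb/c mock cells, -6.99 and -5.59 at 4 h and -6.89 and -5.89 at 18 h. The C57BL6 levels were -4.49 and -4.11 in mock, -6.23 and -5.83 at 4 h and -6.30 and -6.20 at 18 h. By the floored difference it was 1.5-fold lower at 18 h in Balb/c cells and 3.85-fold lower in C57BL6 cells. In C57BL6 cells the floored 18 h mean of -6.246 was almost the measured mean of -6.248. Because mock was the condition through which the probe entered the tests, these levels are a description and no p-value is given for them.

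Slfn5, a group III member that in human cells is induced by interferon, read 0.64 and 0.73 in Balb/c mock cells, -0.38 and 0.38 at 4 h and -1.67 and -1.22 at 18 h. C57BL6 arrays gave 0.09 and 0.21 in mock, 0.10 and 0.03 at 4 h and -1.02 and -0.64 at 18 h. The Balb/c 4 h arrays lay below their mock, and the C57BL6 4 h arrays overlapped with theirs. The 18 h change was -2.13 ± 0.27 in Balb/c cells (limma adjusted p = 0.00483), a 4.38-fold lower signal. It was -0.98 ± 0.27 in C57BL6 cells, with adjusted p = 0.0959 without and 0.0219 with the replicate block.

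Slfn8, a long group III member, read 0.32 and 0.35 in Balb/c mock cells, -0.48 and 0.06 at 4 h and -1.97 and -1.43 at 18 h. In C57BL6 cells it read 0.25 and 0.32 in mock, 0.23 and 0.07 at 4 h and -1.07 and -0.92 at 18 h. Mock arrays of both strains lay close together, and the 18 h arrays of both strains stood apart from all others. The 18 h change was -2.04 ± 0.23 in Balb/c cells (limma adjusted p = 0.00337) and -1.28 ± 0.23 in C57BL6 cells (adjusted p = 0.0227), which are 4.10-fold and 2.42-fold lower signals.

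Slfn9, its neighbour on the same strand, read 0.25 and 0.40 in Balb/c mock cells, -0.28 and 0.13 at 4 h and -1.78 and -1.36 at 18 h. In C57BL6 cells it read 0.34 and 0.44 in mock, 0.24 and 0.20 at 4 h and -1.08 and -0.93 at 18 h. The 18 h change was -1.90 ± 0.20 in Balb/c cells (limma adjusted p = 0.0025) and -1.39 ± 0.20 in C57BL6 cells (adjusted p = 0.0086). The levels of Slfn9 and Slfn8 ran almost in parallel over the 12 arrays. The array's annotation lists transcripts of both Slfn8 and Slfn9 for the Slfn9 probe, so signal cannot be divided between these 2 genes with certainty.

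**Figure D3:**
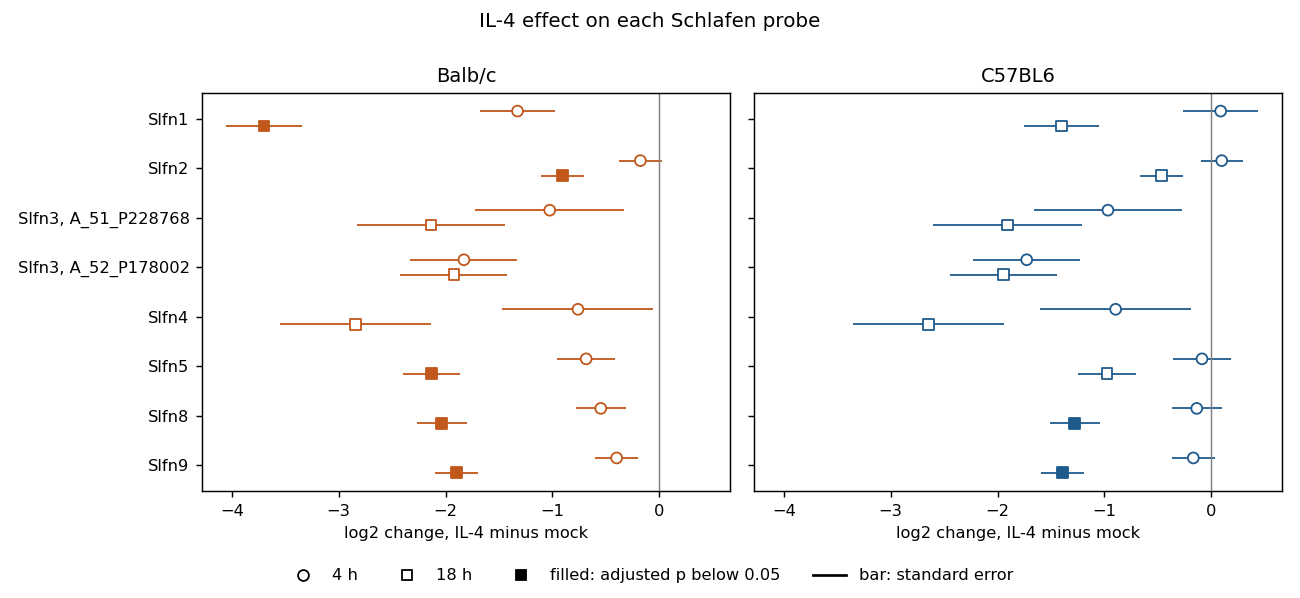
Change in level (IL-4 minus mock, log2) of each Schlafen probe after 4 h (circles) and 18 h (squares) in Balb/c and C57BL6 macrophages. The 18 h values of Slfn1 in Balb/c cells and of the dimmer Slfn3 probe come from signals not well above background. Bars are standard errors and filled symbols are limma adjusted p below 0.05 without the replicate block; the filled ones are the 18 h values of Slfn1, Slfn2, Slfn5, Slfn8 and Slfn9 in Balb/c and of Slfn8 and Slfn9 in C57BL6 cells.

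The 4 h samples asked which members moved early. No Schlafen probe was called by limma at 4 h, where 0.402% of all probes were called lower and 0.862% higher in Balb/c cells, and 1.49% lower and 1.72% higher in C57BL6 cells. At an unadjusted p below 0.05 there were 4 of 8 probes in Balb/c cells, all lower, where 10.3% of all probes were past it in either direction, and 1 of 8 in C57BL6 cells, where 16.4% were. Without the dimmer Slfn3 probe these counts were 3 of 7 and 0 of 7. Both 4 h arrays lay below both mock arrays for 5 of 8 probes in each strain (4 of 7 without the dimmer Slfn3 probe), against 16.3% of all probes in Balb/c and 26.9% in C57BL6. Those probes were of Slfn1, Slfn3 (A_52_P178002), Slfn5, Slfn8 and Slfn9 in Balb/c cells, and both Slfn3 probes, Slfn4, Slfn8 and Slfn9 in C57BL6 cells.

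The fit with the replicate block called 4 probes lower at 4 h in Balb/c cells, where 3.62% of all probes were, and 3 in C57BL6 cells, where 8.82% were. Without the dimmer Slfn3 probe these were 3 in Balb/c and 2 in C57BL6 cells, and in both strains they included Slfn3 and Slfn4. The changes of Slfn3 (A_51_P228768) were -1.02 in Balb/c cells (adjusted p = 0.0445) and -0.97 in C57BL6 cells (0.0309). Slfn4 changed by -0.76 in Balb/c cells (0.0452) and -0.90 in C57BL6 cells (0.0178). Slfn1 was also called in Balb/c cells, at -1.33 (0.0314). Slfn2 was not called at 4 h under either fit, at -0.18 ± 0.20 in Balb/c and 0.10 ± 0.20 in C57BL6 cells.

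Over both strains, 18 h against 4 h of IL-4 was called lower for 5 of 8 probes, where 2.25% of all probes were. They were those of Slfn1, whose Balb/c 18 h arrays were not well above background, Slfn2 (-0.65 ± 0.14), Slfn5 (-1.17 ± 0.19), Slfn8 (-1.32 ± 0.16) and Slfn9 (-1.36 ± 0.14), with limma adjusted p between 0.00268 and 0.0478. Some of these calls were lost when Balb/c 18 h replicate 1, C57BL6 18 h replicate 1 or either C57BL6 4 h replicate was left out. The share of all probes called in those fits is not given, so this is not a result about these genes alone. The call of Slfn2 was lost in 11 of 12 fits that each left out 1 array and in 4 of 10 other settings. With the replicate block 7 probes were called, with 8.43% of all probes, which were those other than the dimmer Slfn3 probe. Slfn4 differed by -1.91 between 18 h and 4 h, adjusted p = 0.0842 without and 0.00083 with the block.

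The arrays shared 3 slides, each holding more than 1 group, and the size of the change at 18 h could be read within a slide. Slide 1 held both Balb/c mock arrays and replicate 1 of both IL-4 times. There the 18 h array differed from the mean of the mock arrays by -0.83 for Slfn2, -3.58 for Slfn4, -2.35 for Slfn5, -2.31 for Slfn8 and -2.11 for Slfn9, and by -2.86 for the brighter Slfn3 probe. Slfn1 and the dimmer Slfn3 probe also read lower there, with 18 h signals not well above background. Slide 3 held both C57BL6 18 h arrays with mock replicate 2 and 4 h replicate 2. There the mean of the 18 h arrays differed from that mock array by -1.21 for Slfn1, -0.31 for Slfn2, -2.99 for Slfn4, -1.04 for Slfn5, -1.31 for Slfn8 and -1.44 for Slfn9, and by -2.0 for the brighter Slfn3 probe. The sign of these within-slide differences follows from the lack of overlap given above, so only their sizes are new.

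The strains were compared at each condition. In mock cells no member was called between Balb/c and C57BL6 by limma, and none had an unadjusted p below 0.05, while 5.68% of all probes were called in either direction and 20.5% had such a p. The largest difference was that of Slfn1, at 0.58 ± 0.35 (Balb/c minus C57BL6, adjusted p = 0.396). With the slide as a block it was 1.26 and called (adjusted p = 0.041), and no slide held mock arrays of both strains. After 4 h of IL-4 no member was called and 1 had an unadjusted p below 0.05, while 4.3% of all probes were called and 15.1% had such a p.

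After 18 h of IL-4, 1 member was called between strains, where 5.22% of all probes were. Slfn1 read -6.26 and -5.22 in Balb/c cells, not well above background, against -4.00 and -4.04 in C57BL6 cells. By the floored difference it was 2.04-fold lower in Balb/c cells. The measured difference, without the floor, was called (limma adjusted p = 0.0307). That call was lost when any 1 of 7 arrays was left out, namely either Balb/c mock, Balb/c 18 h replicate 1, or either replicate of C57BL6 at 4 h or 18 h. With normexp background correction and quantile scaling the measured difference was -0.40 and not called (adjusted p = 0.0668). The other 7 probes were lower in Balb/c cells by sizes between -0.71 for Slfn8 and -0.14 for the dimmer Slfn3 probe, none called. That direction did not hold throughout. With the slide as a block the Slfn3 probes stood at 0.60 and 0.85 and Slfn4 at 0.90, so that 5 of 8 probes were lower in Balb/c cells, and without Balb/c 18 h replicate 1 it was also 5 of 8. On slide 2, the only slide with arrays of both strains in 1 condition, Balb/c 4 h replicate 2 minus C57BL6 4 h replicate 1 was -0.66 for Slfn1 and 0.96 for Slfn4.

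The difference between strains in the IL-4 effect itself was tested as an interaction. No probe of any gene was called at 18 h or at 4 h, so that 0.0% of all probes were called in either test. At 18 h 2 of 8 Schlafen probes had an unadjusted limma p below 0.05, where 5.34% of all probes did. They were Slfn1, lower in Balb/c cells by a signal not well above background (adjusted p = 0.634), and Slfn5 at -1.15 ± 0.38 (Balb/c effect minus C57BL6 effect, adjusted p = 0.914). At 4 h it was 1 of 8, that of Slfn1, at -1.41 ± 0.50, where 2.56% of all probes did. With the replicate block the adjusted p at 18 h was 0.128 for Slfn1 and 0.157 for Slfn5. A call in 1 strain and not in the other is therefore not shown to be a difference between strains.

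The order of the 6 groups by mean level was similar among the group III genes. For Slfn8 it ran Balb/c mock, C57BL6 mock, C57BL6 4 h, Balb/c 4 h, C57BL6 18 h and Balb/c 18 h, with means of 0.34, 0.28, 0.15, -0.21, -0.99 and -1.70, and no neighbours overlapped. Slfn9 had the mock groups in the other order and overlapping. For Slfn5 the Balb/c mock mean of 0.69 stood above the C57BL6 mock mean of 0.15, and C57BL6 mock, C57BL6 4 h and Balb/c 4 h overlapped as neighbours. For Slfn2 the first 5 groups overlapped as neighbours, with means between 4.13 in C57BL6 4 h and 3.56 in C57BL6 18 h cells, and Balb/c 18 h stood below at 3.16. For Slfn3 and Slfn4 the strains overlapped in every condition.

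Likeness between profiles was measured as the root mean square difference of 2 probes' log2 levels over the 12 arrays, each centred on its own mean. All members share these arrays and their scaling. Slfn8 and Slfn9 differed by 0.08, Slfn5 and Slfn8 by 0.19 and Slfn5 and Slfn9 by 0.22, the smallest differences in the family. Slfn4 lay nearest to the brighter Slfn3 probe, at 0.41, and the probes of Slfn3 differed by 0.45. Slfn1 lay at 0.54 or more from every other member. Its signal was well above background on 10 of the 12 arrays, and that of the dimmer Slfn3 probe on 6. The distances of these 2 probes therefore rest in part on dim signals. The profile of Slfn2 was the flattest, with a root mean square deviation from its own mean of 0.36, against 1.26 for Slfn1.

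**Figure D4:**
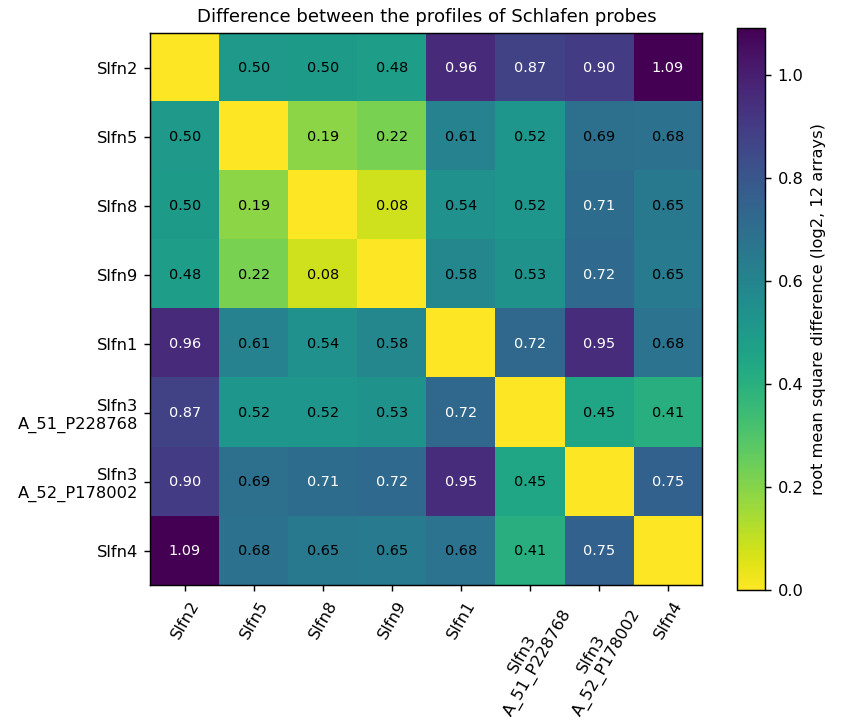
Root mean square difference between the centred log2 profiles of each pair of Schlafen probes over 12 arrays (colour and printed value; both axes list the probes). Slfn5, Slfn8 and Slfn9 form the most alike block, at 0.08 to 0.22, and Slfn2 and Slfn4 are the least alike pair at 1.09. The signals of Slfn1 and of the dimmer Slfn3 probe were not well above background on some of these arrays.

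The nearest genes outside the family were sought among 23371 named probes for each called member. Slfn9 lay nearest to Ddx58 (0.11), which encodes the RNA sensor RIG-I, then to Ifi204 (0.12) and to Dhx58 (0.13), which encodes the related LGP2. Slfn8 lay nearest to Oasl2 (0.14), Irgm1 (0.15) and Ddx58 (0.15). Slfn5 lay nearest to Dock5, Ddx58 and Parp14 (0.21 each). Slfn1 lay nearest to Tgtp1 (0.37), an interferon-induced GTPase, Mx1 (0.39), an antiviral GTPase, and Cmpk2 (0.39). These distances include the Balb/c 18 h arrays, where the Slfn1 signal was lowest and not well above background. Slfn2 lay nearest to Exoc6 (0.10), Rbm43 (0.12) and Rnf114 (0.12).

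A list of 40 interferon-induced genes without Schlafen members, 39 of them tested, gives the context at 18 h. In Balb/c cells 34 of 39 were called lower and none higher, with a median change of -1.78. In C57BL6 cells 26 of 39 were called lower and none higher, with a median change of -1.38. Of all probes 2.33% were called lower in Balb/c and 2.37% in C57BL6 cells. The chemokine gene Cxcl10 changed by -5.38 ± 0.57 in Balb/c cells and -4.85 ± 0.57 in C57BL6 cells (limma adjusted p = 0.00256 and 0.00402). Ifit3, which encodes an antiviral protein, changed by -4.62 in Balb/c and -3.66 in C57BL6 cells. The Schlafen medians of -2.08 and -1.40 lay beside those of this list. At 4 h without the replicate block none of the 39 was called in Balb/c cells, and 1 was called lower in C57BL6 cells. Of all probes 0.402% and 1.49% were called lower. With the block 8 were called lower in Balb/c cells, where 3.62% of all probes were. In C57BL6 cells 7 were called lower, where 8.82% of all probes were, and 1 higher.

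**Figure D5:**
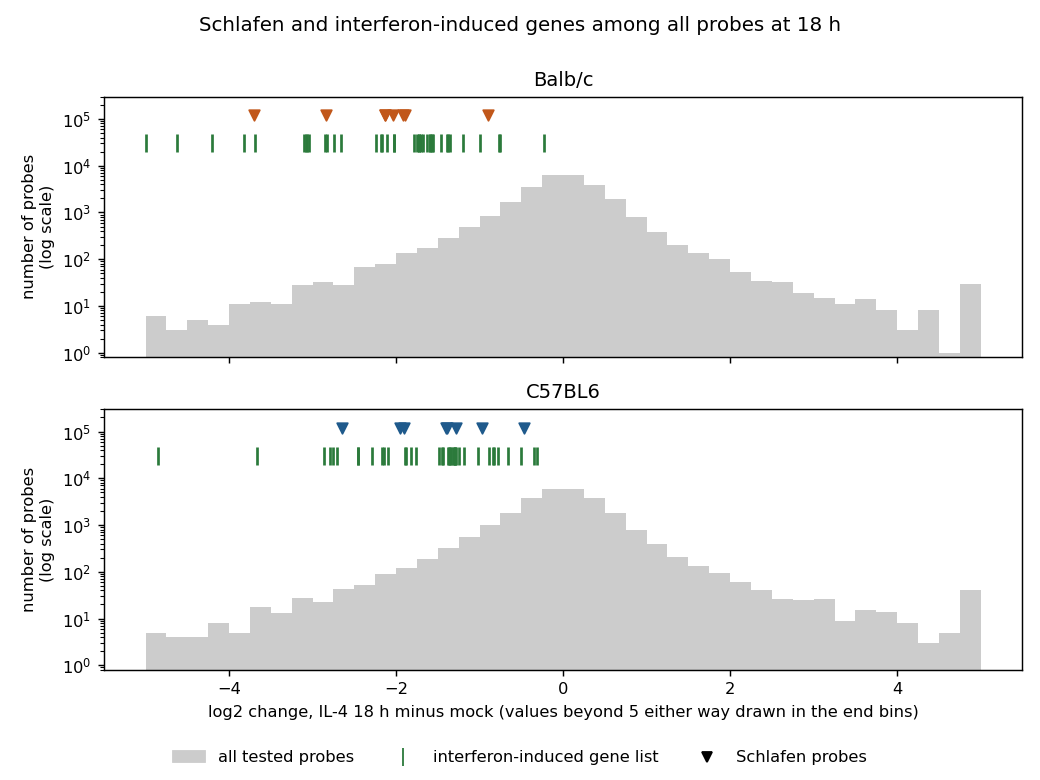
Distribution of the log2 change after 18 h of IL-4 (horizontal axis, IL-4 minus mock) over all 27371 tested probes (grey bars, log-scaled count), with the 39 interferon-induced genes (green ticks) and the 8 Schlafen probes (triangles) above, for Balb/c and C57BL6. All triangles and all ticks lie below 0; the Schlafen triangles reach up to -0.90 in Balb/c and span -2.65 to -0.47 in C57BL6, and the leftmost in Balb/c is Slfn1, whose 18 h signal was not well above background.

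Of 15 tested genes of interferon signalling (receptors, kinases, STATs and IRFs), 2 were called lower and 1 higher at 18 h in Balb/c cells. In C57BL6 cells 2 were called lower. Of all probes 2.33% were called lower and 1.32% higher in Balb/c cells, and 2.37% lower in C57BL6 cells. Stat2 changed by -1.16 in Balb/c and -1.19 in C57BL6 cells, and with Irf9 it is part of the factor that binds the ISRE. Irf9 was at -0.76 and the kinase gene Jak2 at 1.13 in Balb/c cells, both called. With the replicate block 6 were called lower and 1 higher in Balb/c cells, and 4 lower and 1 higher in C57BL6 cells. The block also raised the share of all probes called lower, to 8.1% in Balb/c and 9.69% in C57BL6 cells. The rise is therefore not particular to these genes. Of 15 known IL-4 response genes, 11 were called higher at 18 h in Balb/c cells (1.32% of all probes were). In C57BL6 cells 13 of 15 were (1.87%). This describes the cultures and is no independent check, as the list was chosen with earlier results of these data known. Arg1 and Retnla also passed the filter on dim probes through IL-4 groups alone.

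Because Schlafen genes are known for growth control, 25 cell cycle and quiescence genes were listed. By limma none was called at 18 h in either strain, with medians of 0.68 in Balb/c and -0.43 in C57BL6 cells. With the replicate block 2 were lower and 1 higher in Balb/c cells and 3 lower and 1 higher in C57BL6 cells. That block called 8.1% of all probes lower in Balb/c and 9.69% in C57BL6 cells, so the counts called lower are near those shares. Among 9 tested neighbours of the Schlafen cluster on chromosome 11, 1 was called lower at 18 h in Balb/c cells and none in C57BL6 cells, with medians of 0.05 and 0.08. The called one was Unc45b (adjusted p = 0.0428), next to Slfn5, which was not well above background on either Balb/c 18 h array. Under the replicate block 1 of the 9 neighbours was called lower in each strain, near the shares of all probes just given. The probe of the pseudogene Slfn10-ps, whose annotation lists Slfn8 and Slfn9 transcripts, was at -1.55 ± 0.31 in Balb/c cells (adjusted p = 0.0334) and -1.19 ± 0.31 in C57BL6 cells (0.078) at 18 h. The probe of the Schlafen-like gene Slfnl1 was well above background on 1 of 12 arrays and was not tested.

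All 9 macrophage markers were well above background in every group. Of the 9 lists of cell type markers, 3 (macrophage, neutrophil and B cell) had summed levels at 18 h below those in mock cells in both strains, given here as linear signal relative to the 75th percentile. The macrophage sum was 737 to 880 at 18 h, against 1027 to 1070 in mock, in Balb/c cells. In C57BL6 cells it was 715 to 784 against 843 to 987. A linear sum follows its brightest markers. Singly, 8 of 9 macrophage markers read lower at 18 h in Balb/c cells, with a median change of -0.21, and 3 were called lower. In C57BL6 cells 6 of 9 read lower, with a median of -0.15, and 2 were called lower. Of all probes 2.33% and 2.37% were called lower. The neutrophil sum over 9 markers was 2.17 to 3.23 at 18 h, against 3.65 to 4.43 in mock, in Balb/c cells, and 8.46 to 12.6 against 12.9 to 16.4 in C57BL6 cells. Its defining markers Elane and Retnlg were not well above background on both arrays of any group, nor were Camp and Prtn3 on both arrays of any Balb/c group. The B cell sum over 6 markers was 0.992 to 1.1 at 18 h, against 1.11 to 1.71 in mock, in Balb/c cells, and 1.09 to 1.66 against 2.30 to 3.29 in C57BL6 cells. Its marker Ebf1 was not well above background on both arrays of any group, nor were Cd79a and Pax5 on both arrays of any Balb/c group. Most of the B cell list did not follow its sum in Balb/c cells. There 2 of 5 tested markers read lower at 18 h, with a median change of 0.30. In C57BL6 cells it was 4 of 5, with a median of -0.70, and none was called in either strain. In C57BL6 cells 2 further sums lay below mock at 18 h, while the Balb/c ranges overlapped. The megakaryocyte sum over 5 markers was 24.6 to 36.8 against 57.4 to 69.2 in C57BL6 cells. In Balb/c cells it was 51.0 to 61.8 against 57.2 to 61.2. Its markers Gp9 and Itga2b were not well above background on both arrays of any of these groups. The stromal sum over 6 markers was 0.379 to 0.389 against 0.539 to 0.646 in C57BL6 cells. In Balb/c cells it was 0.939 to 1.12 against 0.870 to 1.42. Its marker Dcn was not well above background on both arrays of any group. The part of these shifts in the lower Schlafen levels was not tested.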

How the data were processed

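Total RNA of each culture was labelled with Cy3 and hybridised to 1-colour Agilent arrays, 1 array per sample, 12 in all. Per the submitters' processing notes the authors extracted each spot's intensity with Agilent Feature Extraction, version 9.5.1.1. The deposited intensity columns used were the processed signal, already background-corrected per the file headers, and, for 1 alternative, the mean and background signals. Marks for background, saturation and outliers were taken as deposited. The deposited table of processed values holds a ratio per probe and array. Set against the scanner values it matched, on probes well above background on all arrays, the scaled processed signal divided by the C57BL6 mock mean (SD of the log2 difference at most 0.00418), and it served as an alternative.

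From there, control spots and outlier spots were left out, spots of a probe averaged, log2 taken and each array's 75th percentile subtracted. Between 54.9% and 69.7% of spots per array were well above background. A model with 6 group means was fitted by limma 3.58.1 in R 4.3.3 to 27371 probes, with 6 residual and 2.14 prior degrees of freedom. The pipeline was tested on simulated data. Pairing was checked by correlating the deviations of same-numbered arrays from their group means. The design text speaks of 2 independent experiments. All 6 correlations, 3 in each strain, lay between 0.198 and 0.639, so the replicate number within strain was used as a block in a second fit. That block cannot be estimated between strains. The highest correlations were 0.639 for Balb/c 4 h and 18 h and 0.6055 for C57BL6 mock and 4 h. In both cases the replicate number coincided with the slide, so the block may hold part of a slide difference.

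All member probes were named. Of each gene list, up to 4 called genes with the largest change were eligible to be named, and the 3 nearest genes by likeness for each called member. The members and lists were chosen with earlier results of these data known. Some eligible genes and motifs are not reported here. Promoters came from RefSeq windows of GRCm38.p6. Alternatives were median and quantile scaling, normexp correction with an offset of 50, filters, probes per gene, slide and replicate blocks, only the arrays compared, the deposited ratios and leaving out each array.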

Additional observations from a re-analysis of the deposited data

Results flagged for a closer look

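At 4 h of IL-4 the same-numbered pairs of the Slfn1 probe lay on different sides of 0 in the strains. In Balb/c cells both pairs were lower than mock, and in C57BL6 cells both were slightly higher, by 0.05 and 0.13, where the change of 0.09 ± 0.35 was not called (limma adjusted p = 0.956). The difference of the effects, Balb/c minus C57BL6, was -1.41 on the log2 scale, with a limma adjusted p of 1.0, 0.563 with the replicate block and 0.269 with the slide as a block.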

How the results depend on the processing

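Among called member results, 223 values under other settings kept their direction and their call, 59 kept their direction and lost the call, and 0 reversed. Many of these values could not have reversed. Leaving out an array of a group not compared leaves a change as it was. A probe whose compared groups do not overlap cannot turn when 1 of their arrays is left out. Counts of called Schlafen probes moved as follows. The share of all probes called rose with the replicate block, as given above, and is not given for the other settings. A moved count is therefore not a result about these genes alone. With the replicate block they were 8 at 18 h and 4 at 4 h in Balb/c cells, 7 at 18 h and 3 at 4 h in C57BL6 cells, and 0 for the strain difference at either time. The block changed no call of the strain differences. With the slide as a block 6 were called at 18 h and 1 at 4 h in C57BL6 cells, 2 at 4 h in Balb/c cells and 1 between strains in mock. Median scaling gave 4 at 18 h in C57BL6 cells and no filter gave 1. Quantile scaling, with or without normexp, gave 1 at 4 h in Balb/c cells. Fitting only the arrays compared gave 0 at 18 h in Balb/c cells, 3 for 18 h against 4 h and 0 between strains at 18 h, where the count was also 0 with normexp and quantile scaling, no filter, or the filter on all 12 arrays. Leaving out 1 array gave 0 to 4 at 18 h in C57BL6 cells, 4 to 7 at 18 h in Balb/c cells, 3 to 5 for 18 h against 4 h and 0 to 1 between strains at 18 h. A group left with 1 array was assumed to vary like the other groups. The causes were not tested. Signal over background limits the Slfn1 value at 18 h in Balb/c cells and the dimmer Slfn3 probe.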
